A study of Arabidopsis thaliana with 12 samples.

Results

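The data compared here are the transcriptomes of Arabidopsis seedlings mutated in one or the other subunit gene of the nuclear cap-binding complex (CBC): cbp80, mutated in CBP80, was set directly against cbp20, mutated in CBP20. The comparison takes the 6 libraries of these mutants, 3 of each genotype, of 12 in the series, and asks which RNAs differ between plants with a lesion in different parts of the same complex. WT (Col-0) libraries, 3 in number, are shown beside them for reference. The 3 se-1 libraries come from a hypomorphic mutant of the miRNA factor SERRATE (SE). They enter the filter on counts, the scaling and the common estimate of the spread, and their counts are quoted for a few genes. All plants were whole seedlings of the Columbia background, 16 days old, grown on plates in constant light without any treatment, and samples were collected over about 30 minutes on ice. Each replicate came from a different pool of plants. The study names its cbp20 line cbp20-1, while the cbp80 allele is not given in the sources used here, so each genotype stands for 1 mutant line, and what differs between the lines besides the named genes cannot be told apart from the genotype.

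The CBC binds the methylated guanosine cap of RNAs made by RNA polymerase II while they are still being transcribed. CBP20, the small subunit, holds the cap itself, and CBP80, the large subunit, holds CBP20 in the shape that binds it and serves as the docking surface for other factors, so the complex needs both. In Arabidopsis the complex is known for its part in the processing of microRNA (miRNA) precursors together with SE, in splicing, and in the response to the hormone abscisic acid (ABA), to which both mutants are hypersensitive.

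The mutant libraries held 18565569 to 27068656 counted read pairs each, with both extremes in cbp20. Levels are given as CPM, the counts of a gene relative to the library total, scaled by TMM factors, and a count of 3 in a mutant library corresponds to between 0.111 and 0.162 CPM. Across the 20882 genes tested, the log2 levels of any pair of cbp20 libraries had a Pearson correlation between 0.992 and 0.993, and those of cbp80 of 0.993, beside 0.985 to 0.988 between a cbp20 and a cbp80 library. These correlations run across genes, which are not independent replicates. By these correlations no mutant library stood apart from its group. On the first principal component, which held 49.4% of the variance, the cbp20 libraries (−1.9 to −0.6) lay between WT (−51.9 to −49.4) and cbp80 (26.1 to 27.8). On the second, cbp20 replicate 3 lay at −11.6, beside −5.4 and −6.2 for replicates 1 and 2. Single genes could differ more, such as PR1 in cbp80 replicate 2, described below. The counts of any pair of replicates differed by more than sampling noise, with a chi-square of at least 4.86 per gene.

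The targeted genes were examined first. CBP20 (AT5G44200, chromosome 5, 17801737 to 17804203, minus strand, 7 introns, TAIR10) stood at 12.3, 13.6 and 11.2 CPM in the cbp20 libraries, at 38.1, 37.9 and 40.4 CPM in cbp80, and at 36.1, 33.3 and 39.4 CPM in WT. Its RNA was thus low in each cbp20 library without overlap, and it was 1.65 ± 0.08 higher in cbp80 on the log2 scale (standard error, adjusted p = 3.8e-09). CBP80, also called ABH1 (AT2G13540, chromosome 2, 5636884 to 5643066, plus strand, 17 introns), stood at 50.6, 47.3 and 43.9 CPM in cbp20 and at 38.5, 31.3 and 38.4 CPM in the libraries labelled cbp80. The difference of −0.39 ± 0.09 passed the test (adjusted p = 0.00641), but against the 35.8, 43.4 and 41.8 CPM of WT the RNA in cbp80 did not pass it (log2 fold change −0.16, adjusted p = 0.149). Counts over the whole gene therefore do not check the cbp80 label, since an insertion can leave RNA from other parts of a gene. SE, whose protein works with the complex, had 87.1 ± 4.95 CPM in cbp20 and 90.3 ± 1.27 CPM in cbp80 (SD, n = 3), a difference of 0.05 ± 0.06 that did not pass the test (adjusted p = 0.634).

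Of the 20882 genes tested, 10.2% (2121) passed an adjusted p-value of 0.05 between the mutants, 1251 higher (5.99%) and 870 lower (4.17%) in cbp80. Most differences were small. The higher genes had a median of 0.42 and the lower ones of −0.43 on the log2 scale, and 145 genes were at least 2-fold higher and 106 at least 2-fold lower. The libraries of the mutants did not overlap in 2089 of the 2121 genes, and 27.7% of all tested genes showed no overlap. Without cbp80 replicate 2 the counts were 768 higher and 492 lower. When libraries were scaled by their size alone, 47.0% of the called genes were higher in cbp80 in place of 59.0% (1018 higher and 1146 lower), so this balance changed with the scaling. In a bulk library, fewer cells of a type and less RNA per cell cannot be told apart.

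**Figure D1:**
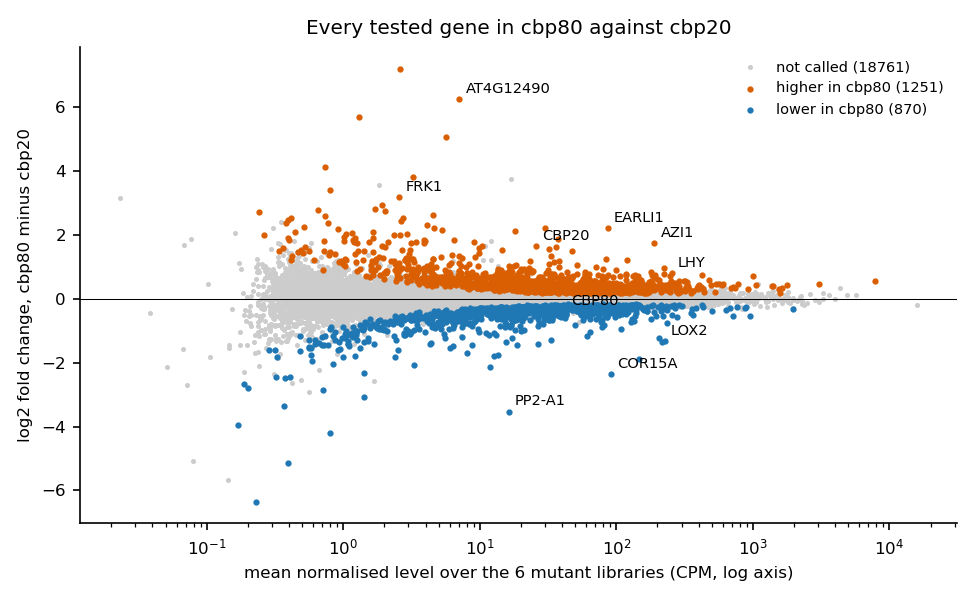
Each point is 1 of the 20882 tested genes, with its mean level over the 6 mutant libraries (CPM, log axis) on the x axis and its log2 fold change in cbp80 minus cbp20 on the y axis. The 1251 genes called higher in cbp80 are orange, the 870 called lower are blue, and the remaining genes are grey. CBP20 rose to 1.65 and PP2-A1 fell to −3.53.

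Against WT, 20.9% of the genes were called in cbp20 and 38.4% in cbp80. Both of these comparisons use the same WT libraries, and they share the mutant libraries with the direct test, so their values are only set side by side. The 1251 genes higher in cbp80 than in cbp20 had a median log2 fold change against WT of 0.22 in cbp20 and 0.68 in cbp80, and the 870 lower genes had −0.25 and −0.69. The 145 genes at least 2-fold higher had medians of −0.05 in cbp20 and 1.65 in cbp80, and the 106 at least 2-fold lower had −0.85 and −2.33.

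**Figure D2:**
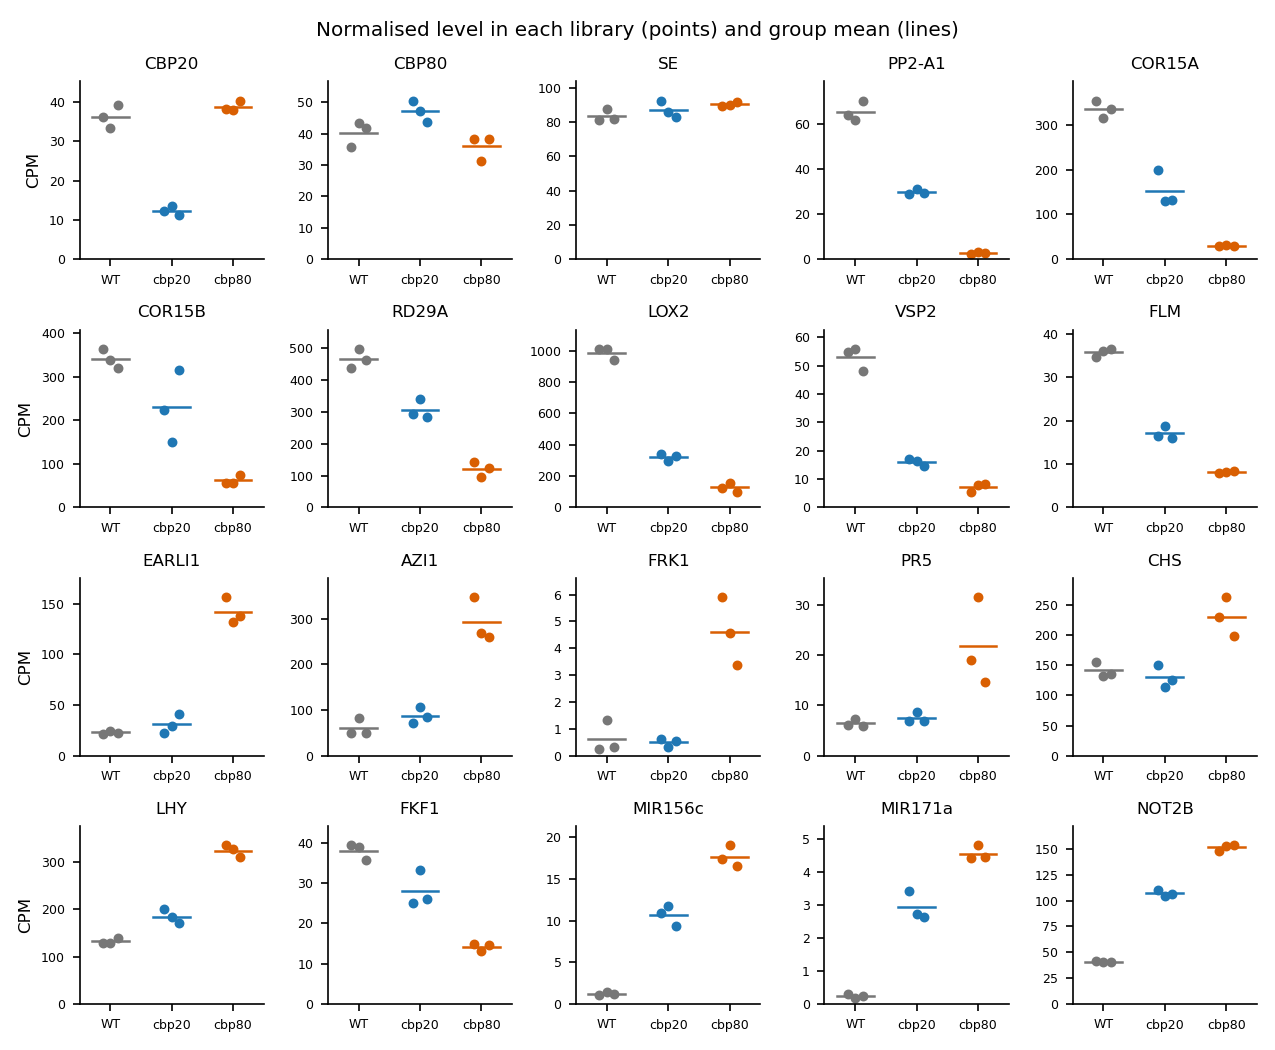
Normalised level (CPM, each axis starting at 0) of 20 named genes in each WT (grey), cbp20 (blue) and cbp80 (orange) library, with a line at each group's mean (n = 3). Apart from SE, the cbp20 and cbp80 points do not overlap in any panel, and for PP2-A1, COR15A, LOX2 and FLM, among others, the order from high to low is WT, cbp20, cbp80.

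The partners of the complex differed little. Of 13 tested genes for cap-binding proteins, the exon junction complex and nonsense-mediated decay, CBP20 and CBP80 themselves were the members called. The helicase gene UPF1, for example, had 129 CPM on average in cbp20 and 123 CPM in cbp80 (adjusted p = 0.531), and NCBP, a cytoplasmic cap-binding protein, had 41.3 and 40.3 CPM (adjusted p = 0.736). Of 18 genes of the miRNA machinery, 3 were called, all higher in cbp80 (16.7%, beside 10.2% of all genes called and 5.99% called higher). NOT2B, which encodes a protein that helps to recruit polymerase II and the Dicer complex to MIRNA genes, stood at 110, 105 and 106 CPM in cbp20 and at 148, 152 and 153 CPM in cbp80, beside 41.5, 40.4 and 40.9 CPM in WT. Its libraries did not overlap in any pair of genotypes, and it was 0.50 ± 0.05 higher in cbp80 than in cbp20 (adjusted p = 1.24e-05). The argonaute gene AGO2 (0.25 ± 0.07, adjusted p = 0.0201) and the phosphatase gene CPL1 (0.22 ± 0.06, adjusted p = 0.0375) moved less, and without a single library they were no longer called in 4 and 5 of the 6 possible cases, with adjusted p up to 0.0877 for AGO2 (without cbp80 replicate 2) and 0.155 for CPL1 (without cbp80 replicate 3). DCL1, the Dicer that cuts miRNA precursors, had 60.3 CPM in cbp20 and 59.9 CPM in cbp80 (adjusted p = 0.953), and AGO1 and HYL1 did not pass the test either (adjusted p = 0.300 and 0.786).

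MIRNA genes are transcribed into capped precursors that DCL1 cuts to release the miRNA. Of 325 annotated MIRNA genes 60 had enough counts, and 8 of these were called, all higher in cbp80 (13.3%, beside 10.2% of all genes called and 5.99% called higher). At an unadjusted p under 0.05, 19 were higher and 0 lower in edgeR, and DESeq2 called 8 higher and 0 lower. The median log2 fold change of the 60, of which 51 were positive and 9 negative, was 0.44, beside 0.00 for all genes. A gene low in cbp20 could pass the filter on counts through libraries in which it is high, which bears on these directions. The counts come from poly(A)-selected long RNA and so measure precursors, not mature miRNAs. The mature miRNAs of 6 of the called genes are shown because they name the precursors that differed, read from the RefSeq copy of the TAIR10 genome with the seed (bases 2 to 8) in capitals. The other 2 called genes are MIR414 and MIR5642a.
miR156c-5p: uGACAGAAgagagugagcac
miR156d-5p: uGACAGAAgagagugagcac
miR157c-5p: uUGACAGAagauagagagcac
miR158a-3p: uCCCAAAUguagacaaagca
miR168a-5p: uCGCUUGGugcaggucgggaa
miR171a-3p: uGAUUGAGccgcgccaauauc

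The miR156 pair is identical, and its seed reads GACAGAA, while that of miR157c, UGACAGA, is the same stretch shifted by 1 base. Both target SPL transcription factors, which time the passage from juvenile to adult leaves. The MIR156c precursor stood at 1.11, 1.42 and 1.13 CPM in WT, at 11, 11.7 and 9.34 CPM in cbp20, and at 17.36, 19.1 and 16.6 CPM in cbp80. The 3 genotypes did not overlap, and the difference between the mutants was 0.72 ± 0.09 (adjusted p = 9.9e-05). MIR157c, the most abundant precursor of the 60, stood at 26.1, 23.8 and 25.5 CPM in cbp20 and at 32.6, 32.2 and 36.7 CPM in cbp80 (0.43 ± 0.09, adjusted p = 0.00524). MIR171a, whose miRNA targets HAM transcription factors of the meristem, had 2.92 ± 0.43 CPM in cbp20, 4.55 ± 0.22 CPM in cbp80 and 0.242 CPM on average in WT (0.63 ± 0.14, adjusted p = 0.00677). MIR156d (0.91 ± 0.21, adjusted p = 0.0105), MIR158a (0.61 ± 0.18, adjusted p = 0.035), MIR414 (0.43 ± 0.13, adjusted p = 0.0407) and MIR168a, whose miRNA targets AGO1 (0.57 ± 0.14, adjusted p = 0.012), were higher too, but each lost its call without 1 library, with adjusted p up to 0.0642 (MIR156d, without cbp20 replicate 1), 0.145 (MIR158a, without cbp80 replicate 3), 0.181 (MIR414) and 0.0725 (MIR168a, both without cbp80 replicate 2). MIR5642a (1.89 ± 0.27, adjusted p = 0.000274) shares 24.6% of its exon bases with another gene, and the counting could not separate strands. Without cbp20 replicate 1, 4 MIRNA genes were called.

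Summed over all 325 MIRNA genes, the level was 153, 149 and 154 CPM in cbp20 and 193, 210 and 203 CPM in cbp80, a ratio of 1.33, and the 6 values did not overlap. Genes for small nuclear RNAs (snRNAs), the capped RNAs at the core of the spliceosome, showed the same order at a lower level. Their sum over 82 genes was 2.13, 1.85 and 1.18 CPM in WT, 9.51, 10.97 and 8.32 CPM in cbp20, and 16.5, 22.6 and 19.1 CPM in cbp80, a ratio of 2.02 between the mutants. Small nucleolar RNA (snoRNA) genes summed to 91.1, 90.7 and 97.2 CPM in cbp20 and to 108, 120 and 117 CPM in cbp80. All counts come from poly(A)-selected RNA, so the snRNA and snoRNA sums hold only what passed that selection. They do not measure the whole pool of these RNAs. For each sum the exact permutation test over 3 against 3 libraries gave a two-sided p = 0.1, the smallest it can give. Of 8 snRNA genes tested, 4 were called and all were higher in cbp80, beside 5.99% of all genes called higher. The filter on counts bears on these directions too, since a gene low in cbp20 could be tested through libraries in which it is high. U2.5, for example, had 0.282 CPM on average in cbp20 and 0.731 CPM in cbp80. U4.7 rose from 3.96, 4.79 and 2.95 CPM to 6.74, 9.88 and 8.76 CPM (1.11 ± 0.19, adjusted p = 0.00117), and U4.8, U4atac and U2.5 were called with log2 fold changes of 1.21, 1.14 and 1.42. Of 65 snoRNA genes 4 were called higher (6.15%), a share close to the 5.99% of all genes. No gene of these classes was called lower by edgeR or DESeq2, nor was any lower at an unadjusted p under 0.05.

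**Figure D3:**
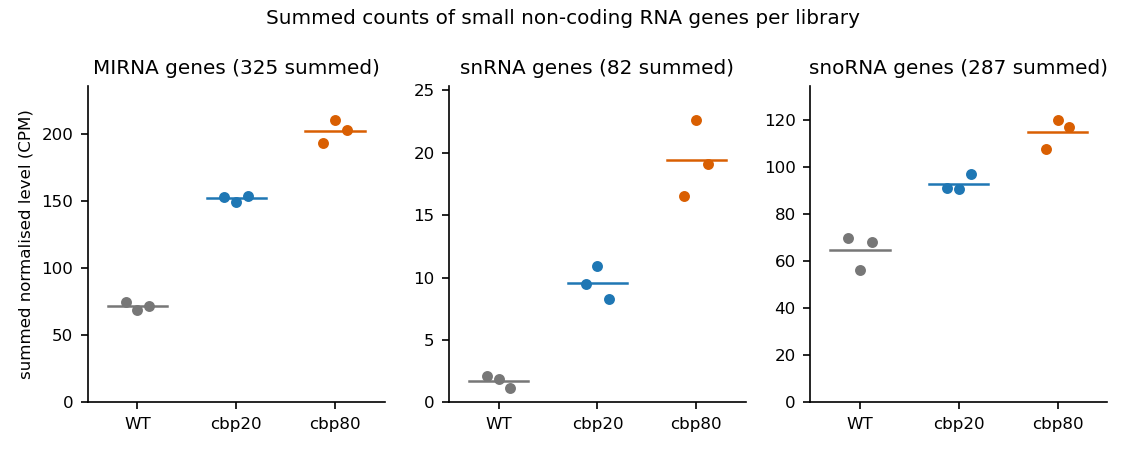
Summed normalised level (CPM, axes from 0) of all annotated MIRNA (325), snRNA (82) and snoRNA (287) genes in each poly(A)-selected library, with group means as lines (n = 3). In each panel the WT libraries are lowest, the cbp20 libraries in the middle and the cbp80 libraries highest, without overlap.

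Among the precursors of trans-acting siRNAs, which arise when a miRNA cuts a noncoding transcript, 3 of 6 tested were called. The share called over all tested genes was 10.2%. TAS2 fell from 8.95, 9.62 and 8.75 CPM in cbp20 to 6.43, 7.36 and 6.46 CPM in cbp80 (−0.43 ± 0.10, adjusted p = 0.0097). TAS1B was lower as well (−0.54 ± 0.15, adjusted p = 0.0304) and TAS3A higher (0.40 ± 0.10, adjusted p = 0.0199). Both lost their call without a single library, with adjusted p up to 0.102 for TAS1B (without cbp80 replicate 3) and 0.0961 for TAS3A (without cbp20 replicate 2). Messenger RNAs that miRNAs target differed in 5.45% of the 55 tested, a share below the 10.2% of all genes. The auxin response factor gene ARF8, targeted by miR167, rose from 70.4, 63.8 and 72.6 CPM to 81.0, 83.8 and 82.9 CPM (0.26 ± 0.06, adjusted p = 0.00543), and TCP24, targeted by miR319, fell from 46.0, 47.5 and 47.6 CPM to 39.0, 39.4 and 41.2 CPM (−0.24 ± 0.05, adjusted p = 0.00767). CSD2, a copper-zinc superoxide dismutase gene targeted by miR398, was 0.37 ± 0.10 higher (adjusted p = 0.0233, and 0.109 without cbp20 replicate 2).

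The largest fall among genes of at least 5 CPM was that of PP2-A1 (AT4G19840, chromosome 4, 10773804 to 10775942, plus strand), which encodes a lectin of the phloem sap. It stood at 64.1, 61.9 and 70.7 CPM in WT, at 29.1, 31.2 and 29.5 CPM in cbp20, and at 2.18, 2.98 and 2.55 CPM in cbp80. The genotypes were far apart relative to their spread, and the mutants differed by −3.53 ± 0.11 (adjusted p = 3.48e-12, the smallest of all genes named here). Another gene covers 18.8% of its exon bases. The genes that followed by size included AT1G31690, of the copper amine oxidase family (19.3 ± 7.17 CPM in cbp20, 4.43 ± 0.68 CPM in cbp80), the pectin methylesterase inhibitor family gene AT5G62360 (19.7 ± 5.88 and 5.69 ± 1.05 CPM) and AT5G48490, of the lipid transfer protein family (21.0 ± 5.02 and 6.09 ± 0.59 CPM). Genes for several enzymes and a thioredoxin came next. The cytochrome P450 gene CYP702A5 fell by 1.69 on the log2 scale, the terpene synthase gene TPS12 by 1.54, the glutathione transferase gene GSTU25 by 1.46, the homocysteine methyltransferase gene HMT3 by 1.47 and the thioredoxin gene WCRKC1 by 1.45. AT5G11330, an oxidoreductase family gene, closed the 12 largest falls and showed how little some replicates varied, with 38.5, 40.4 and 38.3 CPM in cbp20 and 14.9, 16.1 and 12.8 CPM in cbp80 (−1.42 ± 0.09, adjusted p = 7.44e-08). Each of these genes was lower than WT in cbp20 too, with log2 fold changes from −0.31 to −1.26 beside −1.73 to −4.67 in cbp80.

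The remaining members of those 12, COR15A and COR15B, belong to the cold-regulated (COR) genes, whose products protect membranes and proteins when cells lose water. Of 25 tested genes of ABA and drought responses, 28.0% were called, 6 lower and 1 higher, beside 10.2% of all genes called. The 6 lower members are COR15A, COR15B, RD29A, KIN2, LTI30 and COR47. COR15A stood at 354, 316 and 335 CPM in WT, at 199, 130 and 131 CPM in cbp20, and at 30.2, 31.2 and 28.8 CPM in cbp80. The cbp80 values were nearly alike and far below cbp20, with a difference of −2.35 ± 0.17 (adjusted p = 2.66e-07). COR15B, its neighbour and near copy, fell from 222, 150 and 316 CPM to 55.0, 56.0 and 74.5 CPM (−1.89 ± 0.18, adjusted p = 8.76e-06). Reads shared by these copies were not counted, and 29.5% of the exon bases of COR15B overlap another gene. RD29A, a classical reporter of ABA and cold, fell from 295, 343 and 284 CPM to 143, 94.3 and 125 CPM (−1.35 ± 0.12, adjusted p = 3.84e-06). KIN2 fell from 254, 236 and 377 CPM to 109, 105 and 159 CPM (−1.21 ± 0.16, adjusted p = 0.000133). The dehydrin genes LTI30 (−0.81 ± 0.09) and COR47 (−0.54 ± 0.08) were also lower. All 6 kept their call with each library left out. These genes respond to cold, and samples were collected over about 30 minutes on ice in an order not given in the sources used here. The part of collection in these values was not tested.

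The fold changes of the other members had both signs. KIN1, a close relative of KIN2, had 47.0 CPM on average in cbp20 and 33.9 CPM in cbp80 (adjusted p = 0.169), and the dehydrin gene ERD10 had 355 and 301 CPM without overlap (adjusted p = 0.128), so neither passed the test. RD29B, an ABA-induced relative of RD29A, had 15.2 CPM on average in cbp20 and 28.2 CPM in cbp80 (adjusted p = 0.367), and RAB18 (AT5G66400), another dehydrin gene induced by ABA, had 89.0 and 101 CPM (adjusted p = 0.843). NCED3, the enzyme gene that limits ABA synthesis under drought, had 6.36 and 6.47 CPM (adjusted p = 0.962). The 1 higher member was HAB1, a phosphatase gene of ABA signalling (0.23 ± 0.07, adjusted p = 0.0363), which lost its call without cbp80 replicate 1 (adjusted p = 0.170). With the 6 mutant libraries alone 4 members were called higher, and with scaling by library size only 0. The number called lower stayed between 6 and 7 in all alternatives. The median over the 25 genes was 0.05.

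Because CBF factors bind the C-repeat, whose core is CCGAC, in the promoters of many COR genes, the 250 bases before the annotated start were read from the same genome and searched for CCGAC on both strands. Of the 6 lower COR genes, 3 hold at least 1 match. Over all 20260 tested protein-coding genes the share is 12.7%, among those lower in cbp80 it is 12%, and among those at least 2-fold lower 16.5% (17 of 103). The matches of COR15A and RD29A are shown 5′ to 3′ on the strand of the gene, with the core or its complement GTCGG in capitals.
COR15A, chr2:17712458-17712482, minus strand: ttgcaaccttGTCGGtttattttgt
COR15A, chr2:17712395-17712419, minus strand: aacttgttggCCGACatacatttgt
RD29A, chr5:21240567-21240591, plus strand: tagacatggaCCGACtactaataat
RD29A, chr5:21240617-21240641, plus strand: aaatatcataCCGACatcagtttga
RD29A, chr5:21240674-21240698, plus strand: agatatactaCCGACatgagttcca

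These cores lie 142 and 79 bases before the start of COR15A and 140, 90 and 33 bases before that of RD29A. A match is only a run of letters, and binding was not measured here. CBF1, a gene of the CBF factors, had 4.17 ± 2.03 CPM in cbp20 and 3.42 ± 1.07 CPM in cbp80 (SD, n = 3). It did not pass the test (adjusted p = 0.716).

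Of 23 jasmonate genes tested, 7 were called lower in cbp80 and 1 higher (34.8%, beside 4.17% of all genes called lower and 5.99% higher). The other 15 did not pass the test, and the median log2 fold change was −0.17. LOX2, which encodes the lipoxygenase of the chloroplast that starts jasmonate synthesis, stood at 1013, 1009 and 944 CPM in WT, at 344, 296 and 328 CPM in cbp20, and at 126, 158 and 99.4 CPM in cbp80. The mutants were both far below WT and did not overlap each other (−1.34 ± 0.14, adjusted p = 1.77e-05). VSP2, a storage protein gene induced by jasmonate, fell from 16.9, 16.4 and 14.7 CPM in cbp20 to 5.60, 8.06 and 8.22 CPM in cbp80 (−1.13 ± 0.15, adjusted p = 0.000164), and its relative VSP1 fell from 6.32 ± 1.47 to 2.36 ± 0.31 CPM (−1.41 ± 0.16, adjusted p = 3.28e-05). LOX3 (−1.11 ± 0.22), the allene oxide synthase gene AOS (−0.40 ± 0.10) and the repressor gene JAZ2 (−0.27 ± 0.06) were lower too. AOS was not called without cbp80 replicate 3 (adjusted p = 0.0739). The defensin gene PDF1.2 was called on few reads, 30, 1 and 17 counts in cbp20 and 2, 2 and 4 in cbp80 (adjusted p = 0.0407), and lost its call in 5 of 6 cases with a library left out, with an adjusted p of 0.226 without cbp20 replicate 1. The exception in direction was AOC1, an allene oxide cyclase gene, with 30.4, 34.4 and 37.5 CPM in cbp20 and 45.1, 46.9 and 45.2 CPM in cbp80 (0.43 ± 0.09, adjusted p = 0.00444).

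Of the 12 largest rises among genes of at least 5 CPM, 4 form a cluster of similar lipid transfer protein genes on chromosome 4, between 7401087 and 7414955: AZI1, which takes part in priming for systemic immunity, EARLI1, AT4G12490 and AT4G12500. AZI1 stood at 49.4, 82.8 and 49.0 CPM in WT, at 71.9, 106 and 84.5 CPM in cbp20, and at 348, 268 and 260 CPM in cbp80 (1.74 ± 0.24, adjusted p = 0.0002). EARLI1 stood at 22.6, 29.5 and 40.9 CPM in cbp20 and at 157, 132 and 138 CPM in cbp80 (2.21 ± 0.31, adjusted p = 0.000204). In both genes WT overlapped cbp20, and the cbp80 libraries lay well above. AT4G12490 and AT4G12500 had 1 to 10 counts in a cbp20 library and 167 to 389 counts in a cbp80 library. As similar neighbours they can share reads, which were then not counted, and AT4G12490 overlaps another gene over 35.9% of its exon bases. Libraries of 1 genotype could differ widely at these genes, since AT4G12490 had 122, 49 and 753 counts in the se-1 libraries.

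The other genes among the 12 included the chitinase family gene AT2G43620 (10.8 ± 2.18 CPM in cbp20, 49.5 ± 8.63 CPM in cbp80, adjusted p = 0.00111), MLO12, of the family of mildew susceptibility genes (6.86 ± 1.21 and 29.3 ± 4.69 CPM, adjusted p = 1.1e-05), and AIG1, a gene induced by avirulent bacteria (2.82 ± 0.63 and 10.2 ± 4.52 CPM, adjusted p = 0.00192). The glutathione transferase gene GSTF6 rose from 15.9, 15.2 and 17.56 CPM to 56.3, 72.0 and 48.2 CPM (1.86 ± 0.23, adjusted p = 7.46e-05). AT4G04223, a noncoding RNA, stood at 2.2, 1.85 and 1.66 CPM in cbp20 and at 8.24, 9.23 and 8.51 CPM in cbp80, while WT lay between at 6.26, 6.78 and 5.35 CPM (2.16 ± 0.15, adjusted p = 2.34e-07). The oxygenase gene AT2G36690 (1.77 ± 0.32), the peroxidase gene AT5G39580 (1.66 ± 0.29) and CBP20 itself completed the 12.

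Of 27 genes of salicylate signalling and defence, 10 were called, all higher in cbp80 (37.0%, beside 5.99% of all genes called higher). The median log2 fold change was 0.48. At an unadjusted p under 0.05, 15 were higher and 0 lower in edgeR, and DESeq2 called 11 higher and 0 lower. FRK1, a kinase gene induced by bacterial flagellin, stood at 0.624, 0.316 and 0.537 CPM in cbp20 and at 5.91, 4.57 and 3.37 CPM in cbp80 (3.18 ± 0.61, adjusted p = 0.0027). ICS1, which encodes an enzyme of the pathway that makes most salicylate, stood at 25.5, 25.1 and 25.2 CPM in cbp20 and at 34.1, 40.6 and 35.1 CPM in cbp80 (0.53 ± 0.09, adjusted p = 0.00082). PR5, a pathogenesis-related gene, rose from 6.86, 8.71 and 6.87 CPM to 19.0, 31.6 and 14.6 CPM (1.54 ± 0.29, adjusted p = 0.00248). The transcription factor genes WRKY53 (1.02 ± 0.18), WRKY18 (0.80 ± 0.16) and WRKY33 (0.53 ± 0.10) rose as well. The calls of SARD1, WRKY40, PAD4 and SAG101 depended on a single library, with adjusted p of 0.116, 0.128 and 0.244 for the first 3 without cbp80 replicate 2 and of 0.0514 for SAG101 without cbp20 replicate 2. PR1, the usual marker of salicylate responses, was not called (adjusted p = 0.0631). Its replicates varied widely, with 38, 116 and 3 counts in cbp20 and 169, 1706 and 139 counts in cbp80. In se-1 it had 17, 12 and 771 counts.

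Genes that respond within minutes to touch, wounding or chilling were called in 7 of 20 cases, all higher in cbp80 (35.0%, median log2 fold change 0.32). Of all genes, 5.99% were called higher. At an unadjusted p under 0.05, 12 were higher and 1 lower in edgeR, and DESeq2 called 7 higher and 0 lower. TCH3, a calmodulin-like gene induced by touch, rose from 27.5, 27.9 and 39.3 CPM to 55.0, 67.7 and 44.9 CPM (0.83 ± 0.14, adjusted p = 0.00109), and the zinc finger gene SZF1 rose from 52.6, 52.2 and 62.4 CPM to 81.7, 88.6 and 76.2 CPM (0.56 ± 0.08, adjusted p = 0.000316). The other 5, ERF11, ZAT6, TCH2, ERF104 and CZF1, lost their call without at least 1 library, and without cbp20 replicate 1 only 2 members were called. Such genes respond to handling, and the samples were collected over about 30 minutes on ice in an order not given in the sources used here. Whether collection had a part in these values was not tested.

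Of 16 flavonoid genes tested, 6 were called, all higher in cbp80 (37.5%, beside 5.99% of all genes called higher), and the median log2 fold change was 0.40. At an unadjusted p under 0.05, 10 were higher and 0 lower in edgeR, and DESeq2 called 6 higher and 0 lower. CHS, the first enzyme gene of the pathway, stood at 151, 114 and 125 CPM in cbp20 and at 230, 263 and 199 CPM in cbp80, beside 156, 133 and 136 CPM in WT (0.83 ± 0.13, adjusted p = 0.000485). The flavonol synthase gene FLS1 rose from 28.7, 21.3 and 24.1 CPM to 40.9, 47.8 and 39.1 CPM (0.78 ± 0.11, adjusted p = 0.000243), and MYB111, which activates both, from 9.57 ± 1.00 to 15.8 ± 1.397 CPM (0.72 ± 0.16, adjusted p = 0.00648). CHI (AT3G55120), UGT78D2 and TT19 were the other members called, and 3 members were called without cbp20 replicate 2. Glucosinolate genes make the mustard oil precursors of the cabbage family. Of 20 tested, 5 were called, all lower in cbp80 (25.0%, beside 4.17% of all genes called lower, median −0.17). At an unadjusted p under 0.05, 11 were lower and 0 higher in edgeR, and DESeq2 called 7 lower and 0 higher. Their regulator MYB34 fell from 42.7, 44.3 and 44.2 CPM to 31.8, 31.9 and 36.4 CPM (−0.39 ± 0.07, adjusted p = 0.000889). CYP79B2 (−0.36 ± 0.06, adjusted p = 0.00115) and CYP79B3 (−0.49 ± 0.10, adjusted p = 0.00273), which turn tryptophan into the precursor of indole glucosinolates, were lower with it. CYP79F2 and SOT18 completed the 5, and 3 of the 5 were called without cbp20 replicate 1.

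**Figure D4:**
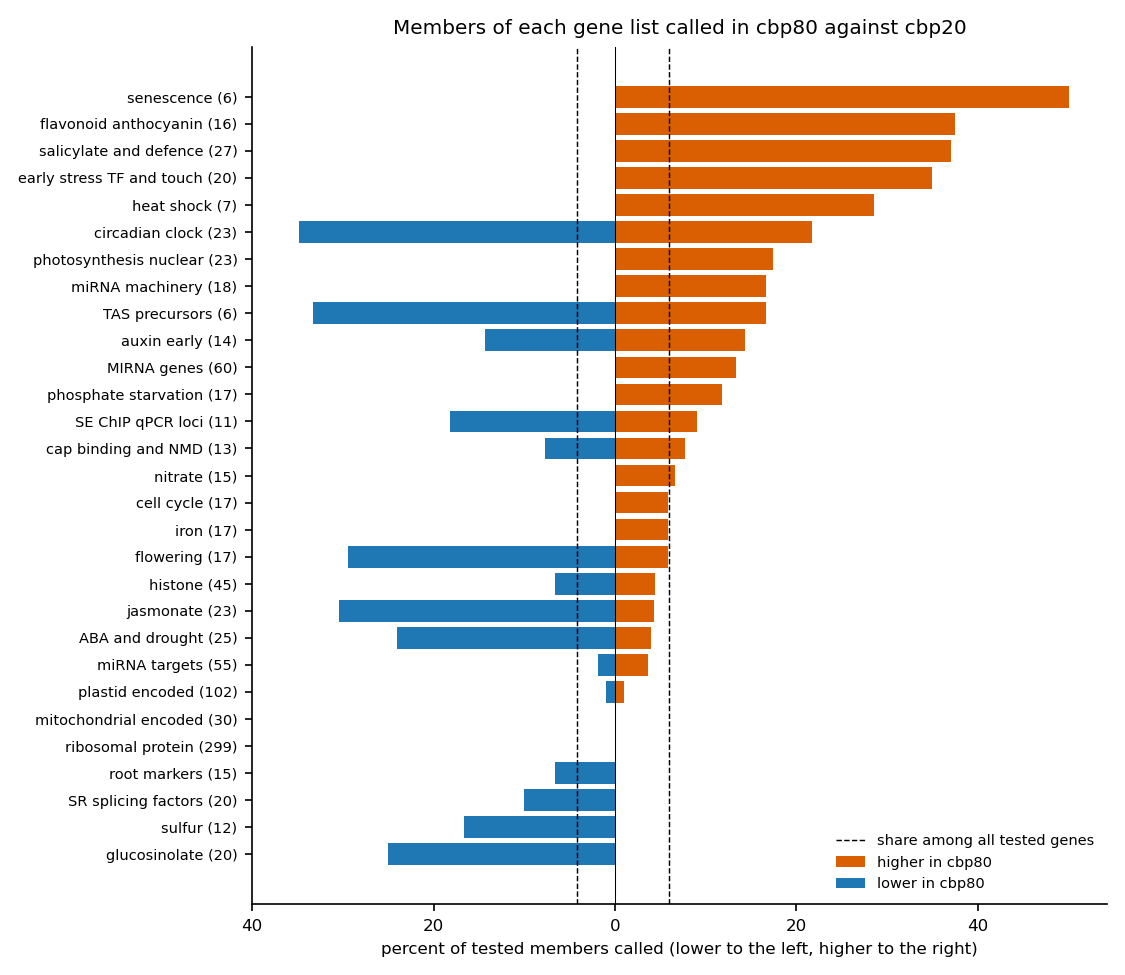
Percent of the tested members of each gene list called in cbp80 against cbp20, with members called higher to the right in orange and members called lower to the left in blue. The number tested stands in brackets, and the dashed lines mark the shares among all genes tested, 5.99% higher and 4.17% lower. Defence, touch and flavonoid lists lie to the right, jasmonate, glucosinolate and ABA lists mostly to the left, and the clock list on both sides.

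No list held a larger share of called genes among those with at least 7 tested members than that of the circadian clock, with 13 of 23 called (56.5%), 5 higher and 8 lower in cbp80. Over all tested genes the share called was 10.2%. In the Arabidopsis clock, factors made around dawn repress genes that peak toward evening, and the evening factors in turn repress the morning ones. The 5 higher genes all belong to the morning part. LHY, a MYB factor of the core loop, stood at 128, 129 and 140 CPM in WT, at 201, 183 and 171 CPM in cbp20, and at 335, 327 and 310 CPM in cbp80 (0.81 ± 0.08, adjusted p = 9.82e-06). Its partner CCA1 rose from 136, 122 and 106 CPM to 193, 174 and 185 CPM (0.60 ± 0.08, adjusted p = 0.000192). The related factor genes RVE1 (0.72 ± 0.06) and RVE8 (0.59 ± 0.06) and the coactivator gene LNK2 (0.42 ± 0.08) were higher with them, and all 5 kept their call with each library left out.

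Lower in cbp80 were genes of the later phases. FKF1, a blue light receptor gene of the afternoon, stood at 25.1, 33.2 and 26.2 CPM in cbp20 and at 14.8, 13.1 and 14.6 CPM in cbp80 (−0.99 ± 0.11, adjusted p = 3.72e-05). PRR3, a pseudo-response regulator gene, stood at 42.5, 43.2 and 43.1 CPM in cbp20, close to the 41.7, 41.9 and 44.9 CPM of WT, and at 29.0, 28.6 and 32.7 CPM in cbp80 (−0.51 ± 0.07, adjusted p = 0.000208). LUX, a subunit gene of the evening complex, fell from 38.8, 45.4 and 39.9 CPM to 29.6, 27.9 and 30.7 CPM (−0.49 ± 0.07, adjusted p = 0.000356). The RNA-binding protein gene GRP7, an output of the clock, fell from 1052, 1171 and 1160 CPM to 700, 770 and 879 CPM (−0.53 ± 0.09, adjusted p = 0.00132). TOC1 (−0.30 ± 0.07, adjusted p = 0.0126), GI (−0.49 ± 0.13, adjusted p = 0.0206), BOA (−0.40 ± 0.11, adjusted p = 0.0318) and CHE (−0.25 ± 0.07, adjusted p = 0.0263) were also lower, but without cbp80 replicate 2 only 4 genes of the list were called lower, and the adjusted p was then 0.0801 for TOC1. GI rose to 0.114 without cbp20 replicate 2, BOA to 0.137 without cbp80 replicate 3 and CHE to 0.138 without cbp80 replicate 2. PRR7, PRR5, PRR9, ELF3, ELF4 and ZTL were among the 10 genes of the list that were not called. The plants grew in constant light, and the clock time at which each library was collected is not given in the sources used here, so genotype and time of collection cannot be told apart for these genes.

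**Figure D5:**
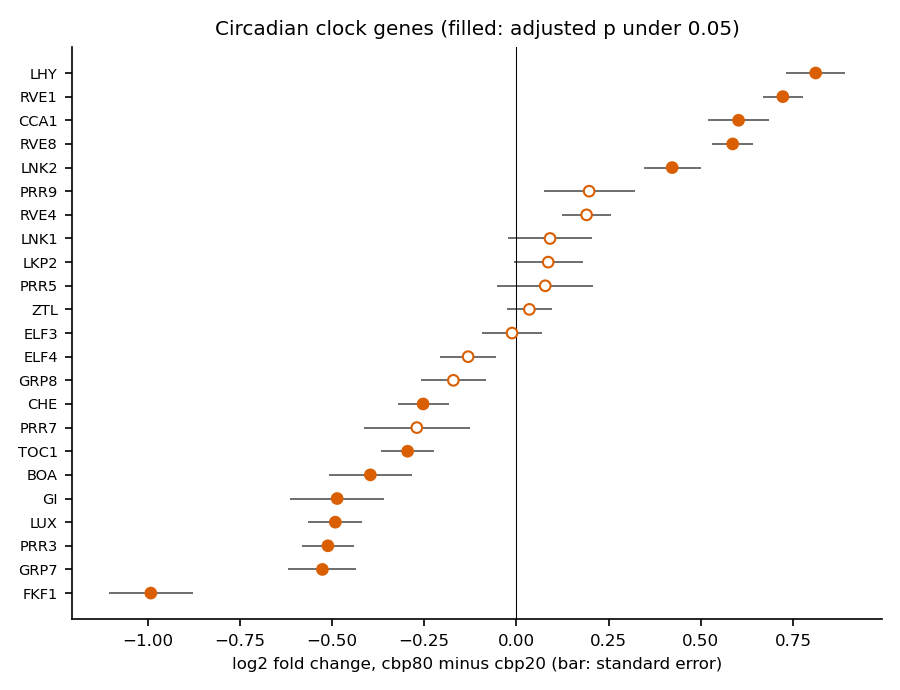
Log2 fold change in cbp80 minus cbp20 of the 23 clock genes, with standard errors as bars and filled points for an adjusted p under 0.05. LHY, RVE1, CCA1, RVE8 and LNK2 lie on the right at 0.42 to 0.81, and 8 genes from CHE to FKF1 lie on the left at −0.25 to −0.99.

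The evening element, AAAATATCT, is the sequence through which morning factors of the CCA1 family act on evening genes. It was searched for on both strands in the 250 bases before the start, a search added after the clock values were seen. It occurs in 2.46% of all tested protein-coding genes (498 of 20260), in 1.4% of those higher in cbp80 (17 of 1210) and in 7.37% of those lower (63 of 855). Of the 13 called clock genes, 5 hold it, and all 5 are among the 8 lower ones. The elements of LUX, TOC1 and GRP7 are shown 5′ to 3′ on the strand of the gene, with the element or its complement in capitals.
LUX, chr3:17182979-17183007, plus strand: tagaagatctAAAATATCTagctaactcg
TOC1, chr5:24674802-24674830, plus strand: aaatatcatgAGATATTTTctccaagatg
GRP7, chr2:9266615-9266643, minus strand: ttgacatatgAGATATTTTtttgctccac
GRP7, chr2:9266594-9266622, minus strand: tgctccactgAGATATTTTtctttgtccc
GRP7, chr2:9266570-9266598, minus strand: gtcccaagatAAAATATCTtttctcgcat

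GRP7 thus holds the element at 76, 55 and 31 bases before its start. LUX holds it at 53 and TOC1 at 151 bases, and FKF1 and BOA hold 1 match each. Morning genes LHY and CCA1 hold none in this window. Whether a factor was bound there was not measured.

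Of the 6 flowering repressor genes of the FLC clade, 4 were called lower in cbp80, beside 4.17% of all genes called lower. FLC (AT5G10140, chromosome 5, 3173382 to 3179448, minus strand), which holds back flowering until winter has passed, had 31, 27 and 31 counts in WT, 14, 12 and 6 counts in cbp20 and 0 counts in each cbp80 library. In each se-1 library FLC had 0 counts as well, so this absence was not particular to cbp80. Set against a floor of 3 counts over the whole cbp80 group (0.0453 CPM), FLC was at least 10.4-fold lower in cbp80 than in cbp20 and at least 30.9-fold lower than in WT (adjusted p = 0.000697 between the mutants). It passed the filter on counts through the WT libraries, and in the fit of the 6 mutant libraries alone it was not tested. The annotated antisense gene AT5G01675 spans FLC, and 68.1% of its exon bases are shared, and such reads were not counted. FLM, also called MAF1, stood at 34.7, 36.1 and 36.5 CPM in WT, at 16.5, 18.8 and 15.9 CPM in cbp20, and at 7.83, 8.11 and 8.47 CPM in cbp80. The replicates were close, and the mutants differed by −1.07 ± 0.09 (adjusted p = 8.72e-07). MAF4 fell from 37, 44 and 28 counts to 13, 10 and 14 counts (−1.49 ± 0.26, adjusted p = 0.00141) and MAF5 from 46, 68 and 43 counts to 9, 12 and 9 counts (−2.32 ± 0.31, adjusted p = 0.000155). Their neighbours and relatives MAF2 (36.2 CPM in cbp20, 35.5 CPM in cbp80, adjusted p = 0.846) and MAF3 (12.9 and 12.03 CPM, adjusted p = 0.523) were not called.

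AGL24, a promoter of flowering from the same MADS-box family, was lower in cbp80 too (16.0 ± 0.14 and 11.8 ± 1.03 CPM, −0.43 ± 0.09, adjusted p = 0.00439). Of the 17 tested flowering genes, 5 were called lower and 1 higher (35.3%, beside 10.2% of all genes called). The higher one, CO, lost its call without any of the 6 libraries in turn (adjusted p = 0.043 with all, up to 0.138 without cbp20 replicate 1). The integrator genes SOC1 and FT and the repressor gene SVP did not pass the test. SOC1 had 48.0 CPM in cbp20 and 45.5 CPM in cbp80 (adjusted p = 0.596), SVP had 189 and 190 CPM (adjusted p = 0.905), and FT had 0.932 and 0.929 CPM (adjusted p = 0.989).

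Senescence genes were called in 3 of 6 cases, all higher in cbp80, beside 5.99% of all genes called higher. The transcription factor gene ORE1 rose from 9.87, 11.6 and 13.9 CPM to 19.3, 22.7 and 21.3 CPM (0.86 ± 0.14, adjusted p = 0.000776). SEN1 (AT4G35770, 0.71 ± 0.19, adjusted p = 0.0223) and SAG13, with 1, 4 and 0 counts in cbp20 and 34, 36 and 19 counts in cbp80 (adjusted p = 0.0201), lost their call without cbp20 replicate 1 (0.0856 and 0.0865). SAG12, which marks late senescence, had at most 1 count in any library. The summed level of the 7 senescence genes was 158 ± 35.2 CPM in cbp20 and 237 ± 11.4 CPM in cbp80 without overlap (exact permutation test, two-sided p = 0.1, the smallest possible). Marker sums for other parts of the plant were close. The 15 root markers, all detected in the 6 libraries, summed to 308 to 321 CPM in cbp80 and 313 to 324 CPM in cbp20 (p = 0.5), the 10 reproductive and meristem markers, of which 5 were detected in all 6 libraries, to 20.8 to 24.3 and 22.8 to 23.5 CPM (p = 0.7), and the 24 photosynthesis genes to 49230 to 52460 and 45530 to 57470 CPM (p = 0.9), all by the same exact permutation test. Their part in the results above was not tested. Among the photosynthesis genes 4 of 23 were called higher, including the antenna gene LHCB2.1 (886 ± 115 and 1203 ± 41.4 CPM, 0.44 ± 0.08, adjusted p = 0.00218). The other called antenna genes LHCB4.3, LHCB2.2 and LHCB2.3 lost their call without cbp80 replicate 2 (adjusted p = 0.0523, 0.119 and 0.0844).

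The remaining lists named here held 1 to 4 called members each, to be read beside the 10.2% of all genes. Among 14 early auxin genes (28.6% called), IAA2 (0.32 ± 0.06) and IAA16 were higher and IAA29 (−1.54 ± 0.33) and IAA6 lower. Of 20 genes of SR splicing factors, RS40 was lower with 145 CPM in cbp20 and 119 CPM in cbp80 (−0.28 ± 0.06, adjusted p = 0.00347), and SCL30 was the other call. Of 17 cell cycle genes CYCB2;3 was called (0.36 ± 0.08), of 15 nitrate genes NRT3.1 (0.52 ± 0.10), of 17 iron genes OPT3 (0.28 ± 0.09), of 15 root markers PHO1 (−0.34 ± 0.07). The phosphate starvation list held 2 calls of 17 (PLDZ2 and PHT1;4, higher), the sulfur list 2 of 12 (LSU2 and APR3, lower) and the heat shock list 2 of 7 (28.6%, HSFA7A and MBF1C, higher). Of 11 loci at which the study had tested SE binding, 3 were called (27.3%), AT3G10930 higher (0.82 ± 0.23) and AT3G19030 (−0.40 ± 0.09) and AT2G23120 (−0.30 ± 0.09) lower. IAA6, IAA16, SCL30, OPT3, PLDZ2, PHT1;4, LSU2, APR3, HSFA7A, MBF1C, AT3G10930 and AT2G23120 lost their call without cbp20 replicate 1 or another library, with adjusted p between 0.068 and 0.246 at the highest.

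None of the 299 tested nuclear genes whose description names a ribosomal protein was called by edgeR, beside 10.2% of all genes, and their median log2 fold change was −0.01. At an unadjusted p under 0.05, 14 were higher and 13 lower, and DESeq2 called 2 higher. Leaving out 1 library gave up to 4 higher (without cbp80 replicate 1). Of 45 histone genes 5 were called (11.1%), among them the linker histone gene HIS1-3, induced by drought, which was lower in cbp80 (68.9 and 46.6 CPM, −0.56 ± 0.13, adjusted p = 0.00995, and 0.0631 without cbp80 replicate 2). Of 102 plastid-encoded genes 2 were called (1.96%). None of 30 mitochondrial genes was called by edgeR or DESeq2, with 5 higher at an unadjusted p under 0.05. Plastid RNA made up 1.06%, 0.998% and 1.05% of the counts in cbp20 and 0.997%, 0.992% and 0.963% in cbp80.

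The study is concerned with genes without introns, so called genes were also counted by the number of introns of their first isoform. Of 3449 tested genes without introns, 10.96% were called, of 2793 with 1 intron 11.3%, of 7355 with 2 to 5 introns 10.2%, and of 7153 with more than 5 introns 9.49%. The shares of higher genes (6.64%, 6.48%, 5.81% and 5.77%) and of lower genes (4.32%, 4.80%, 4.35% and 3.72%) ran close to those of all genes, and the median log2 fold changes were 0.02, 0.00, 0.00 and −0.01. Differences of at least 2-fold were called in 1.89% of genes without introns and in 0.615% of those with more than 5. By level, 4.44% of genes under 1 CPM and 14.9% of those over 100 CPM were called, while 4.21% and 0.292% were called with a difference of at least 2-fold, and the part of level in the shares by introns was not tested. Without the filter on low counts the order of the first and the last class reversed, with 6.70% called among genes without introns and 9.13% among those with more than 5.

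Called genes were spread over the chromosomes. In 105 windows of 1 Mb with at least 50 tested genes, between 4.25% and 18.6% of genes were called, with a median of 9.91%. Of the 10 tested genes on each side of CBP80, none was called by edgeR or DESeq2, with 2 higher and 3 lower at an unadjusted p under 0.05. Of the 20 around CBP20, 5 were called, all higher in cbp80 (25.0%, beside 5.99% of all genes): FLA13 (0.56 ± 0.11), GLK2 (0.41 ± 0.06), ERF9 (0.70 ± 0.22), AT5G44260 (0.79 ± 0.20) and AT5G44290 (0.35 ± 0.05). GLK2, a transcription factor gene for chloroplast development, is the next tested gene on 1 side of CBP20 and ERF9 the next on the other. Against WT, these 5 genes had log2 fold changes of 0.12 to 0.69 in cbp20 and of 0.58 to 1.48 in cbp80, so none was lower than WT in cbp20.

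A last group of genes lay on opposite sides of WT in the mutants, with both called against WT. The 5 with the largest smaller change all were lower in cbp20 and higher in cbp80. GSTF7, a neighbour and close relative of GSTF6, stood at 27.0, 45.2 and 29.9 CPM in WT, at 17.1, 15.3 and 20.3 CPM in cbp20, and at 50.5, 66.2 and 46.1 CPM in cbp80. Its log2 fold change was −0.96 against WT in cbp20 and 0.67 in cbp80. HO3, a heme oxygenase gene, stood at 2.18, 2.94 and 2.58 CPM in WT, at 1.51, 1.49 and 1.24 CPM in cbp20, and at 4.61, 5.82 and 4.03 CPM in cbp80. In neither gene did the 3 genotypes overlap. AT1G26420, of the berberine bridge enzyme family, AT1G36622 and the peroxidase gene AT5G39580 showed the same order of means, with log2 fold changes of −1.49, −0.92 and −0.91 in cbp20 and of 1.25, 0.84 and 0.75 in cbp80.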

How the data were processed

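Polyadenylated RNA of whole seedlings was sequenced as paired reads. Per the labels, the paper's methods and the file headers, the authors mapped reads with TopHat2 2.1.1 (Bowtie2 2.1.0) to TAIR10 and deposited raw counts of read pairs per gene from featureCounts (v1.5.0), without strand, so antisense, overlapping and near-identical genes are uncertain. The deposited tables of the authors' own comparisons, with fold changes and p-values from DESeq2 1.14.1, were not used.

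Genes reaching 10 counts in 3 or more libraries were tested with edgeR 4.0.16 (R 4.3.3) by the quasi-likelihood test in 1 fit of all 12 libraries, with TMM scaling and Benjamini-Hochberg adjustment over all 20882 genes. A gene was called at an adjusted p under 0.05, and ± after a log2 fold change is its standard error. Sums were compared by exact permutation. Named were the targeted genes, the 12 largest rises and falls of at least 5 CPM without overlap, up to 4 called members per list, and 5 genes opposite against WT. Other named genes, and the motifs, were chosen after their values were seen. The comparison and lists were chosen with earlier results of these data known. Gene models, miRNAs and promoters came from RefSeq TAIR10.1. Alternatives were RLE scaling, library size only, DESeq2 1.42.0, no filter, 1 CPM in 3 libraries, the 6 mutant libraries alone, a replicate block and each mutant library left out. P-values measure the spread between pools of plants grown for this experiment. Floors cover counting error only.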

Additional observations from a re-analysis of the deposited data

Results flagged for a closer look

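For 5 genes the effects of the mutants against WT went in opposite directions. They were chosen for that pattern, which fixes a difference between the mutants, so the values are a description and not a test. The difference between cbp80 and cbp20 on the log2 scale was 2.742 for AT1G26420, 1.762 for AT1G36622, 1.754 for HO3, 1.657 for AT5G39580 and 1.632 for GSTF7, each lower than WT in cbp20 and higher in cbp80.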

How the results depend on the processing

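With each mutant library left out in turn, 768 to 1102 genes were called higher and 492 to 693 lower in cbp80, and 104 to 140 and 84 to 106 were called at least 2-fold higher and lower. The lowest totals, 768 and 492, came without cbp80 replicate 2. The replicate numbers do not pair the samples (correlations of deviations −0.02, −0.02 and 0.15 for same-numbered libraries), and a replicate block gave 1342 higher and 936 lower. The percent called also moved. For genes without introns it was 9.634 with DESeq2, 6.702 without a filter, 12.44 with 1 CPM in 3 libraries and 6.006 to 9.675 with a library left out. For genes with 1 intron it was 9.877 with DESeq2, 8.951 without a filter and 6.573 to 10.17 with a library left out. For 2 to 5 introns it was 9.392, 9.066, 10.92 with the replicate block and 6.196 to 8.597, and for over 5 introns 9.125 without a filter, which reverses the order of the first and the last class, 10.32 with the replicate block and 5.803 to 7.592. The cause was not tested. Of 138 called genes examined, 86 kept their call in every alternative in which they were tested, and 0 reversed. The other 52 lost it in at least 1, of which 43 without cbp80 replicate 2. FLC counts among the 86, but the fit of the 6 mutant libraries alone did not test it.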
